A study of Sus scrofa with 6 samples.

Results

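Cytosolic ribosomal protein genes were followed in subcutaneous fat of hybrid pigs (Duroc × Landrace × Yorkshire). Resveratrol, a polyphenol found in plants, had been added to the feed of one group at 400 mg/kg, and the other group ate the control diet. The members are the rows of the 6 library tables whose pig symbol starts with RPL or RPS and a digit, or is RPLP0, RPLP1, RPLP2 or RPSA, leaving out the kinases whose symbols start with RPS6K. This gave 51 of 22844 rows, 26 of the large subunit and 25 of the small subunit, each with its own symbol. Total RNA of 3 resveratrol libraries and 3 control libraries was sequenced, and age, sex and feeding time are not given in the labels used here. Whether each library came from its own animal is not said in the labels. The p-values therefore rest on differences among these 6 libraries, which may be technical.

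Ribosomal proteins coat the ribosomal RNA of both subunits of the ribosome, the small subunit reading the messenger RNA and the large subunit joining the amino acids. Their messenger RNAs are among the most abundant of most cells. In mammals they begin with a pyrimidine tract through which the kinase complex mTORC1 controls their translation as a group, so that messenger RNA levels do not by themselves give ribosome output. Several of them are used as references in quantitative PCR.

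Of 79 symbols of the human ribosome looked for, 46 had a row under that symbol, and 45 of these are members. FAU, whose symbol the rule does not match, is counted below with other genes that carry the pyrimidine tract. Among the symbols without a row were RPL12, RPL8, RPL10A, RPL13A, RPL19, RPL32, RPL41, RPS6, RPS19 and RPS26, which were not analysed here. A symbol was matched to 14750 of the 22844 rows. Library totals ran from 34436239 to 37943877 reads in resveratrol and from 16251536 to 34048559 reads in control, with control 2 the shallowest. The members held 1180676 to 1235742 reads per resveratrol library and 412505 to 959030 reads per control library. The fat cell markers, ADIPOQ, LEP and PLIN1 among them, summed to 22999 to 28621 TPM (a level scaled for transcript length and for library size) in resveratrol and 19224 to 25928 TPM in control, and 8 of 10 had a positive fold change.

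Most members were abundant. Their mean levels had a median of 1099 TPM, 47 of the 51 rows averaged over 100 TPM and 29 averaged over 1000 TPM. Small subunit rows had a median of 1304 TPM and large subunit rows one of 909.7 TPM. RPS29 (ENSSSCG00000038507.1), a small zinc-binding protein of the head of the small subunit, had the highest level by far. It measured 18679, 19203 and 18662 TPM in resveratrol 1, 2 and 3, against 17709, 15845 and 17279.8 TPM in control 1, 2 and 3. RPS29 was thereby the third row of all 22844 by mean TPM. Every resveratrol library lay above every control library, with a log2 fold change of 0.23 (SE 0.19).

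**Figure D1:**
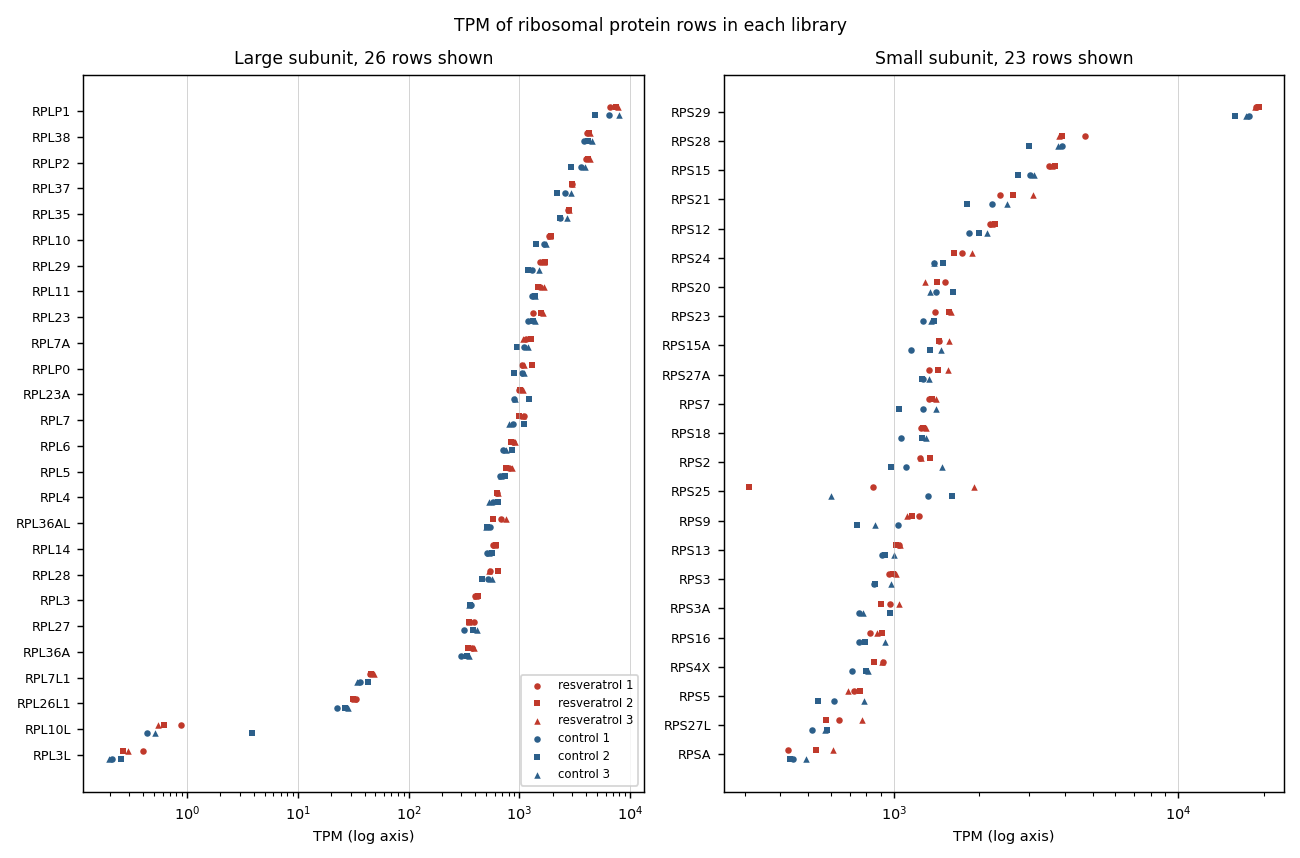
TPM of the 26 large subunit rows and of 23 of the 25 small subunit rows in each library, on a log axis, with resveratrol libraries in red above control libraries in blue and the replicate number as the marker shape. RPS29 stands apart with a mean of 17896 TPM, RPL10L and RPL3L lie lowest, and RPS25 is spread over the widest range of the abundant rows.

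The rank by TPM depended on the transcript length that the authors assigned. An index of that length was read from the files as reads per TPM, relative to the median row of the library. It was 0.018 for RPS29, 0.037 for RPL38 and 0.036 for RPS28, against 1.075 for RPL4. By TMM-scaled CPM, the reads scaled for library size but not for length, RPS29 ranked 24 of the 50 tested members. RPLP1, RPS2, RPLP0 and RPL10 ranked 1 to 4. Between libraries the index of a member varied by a coefficient of variation of at most 2.70%.

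**Figure D2:**
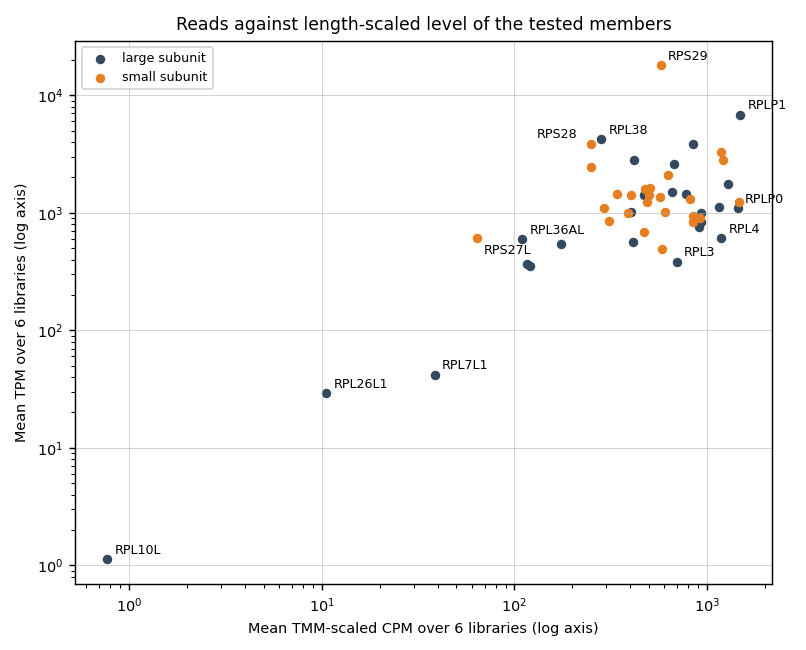
Mean TPM against mean TMM-scaled CPM over the 6 libraries for the 50 tested members, both on log axes. RPS29, RPL38 and RPS28 lie high above rows with the same number of reads, and RPL3 and RPL4 lie low. The paralogs RPL26L1, RPL7L1 and RPL10L are the lowest rows on both axes, RPL7L1 being close to RPS27L in CPM.

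The comparison of the diets asked whether these genes differed between resveratrol and control fat. Nearly all of them had slightly higher scaled reads in resveratrol, by a median of 19.1% in the large subunit and 18.7% in the small subunit, and none passed the test. Of the 25 tested large subunit rows, 24 had a positive log2 fold change, and of the 25 small subunit rows, 24 did too, against 48.8% of all 14908 rows tested. The median log2 fold change was 0.25 in the large subunit and 0.25 in the small subunit, against -0.0075 over all tested rows. The median SE of a member was 0.19, so the fold change of the median gene was little larger than its error. With edgeR's quasi-likelihood test 0 members passed a Benjamini-Hochberg adjusted p of 0.05, as 0.0% of all rows did, and the smallest adjusted p of a member was 0.733. DESeq2 also called 0 members, against 0.268% of all rows. At an unadjusted p under 0.05, edgeR took 2 large subunit rows and 0 small subunit rows as higher and 0 as lower. Of all rows, 6.53% had such a p, 2.21% higher and 4.32% lower. DESeq2 took 2 and 3 as higher, against 2.36% of all rows. With limma on log2(TPM + 0.5) it was 1 and 1, RPL36AL and RPS9, against 1.32% of all rows higher and 5.06% in either direction, and 0 members were called. In bulk tissue, more cells of a type and more RNA per cell cannot be told apart.

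**Figure D3:**
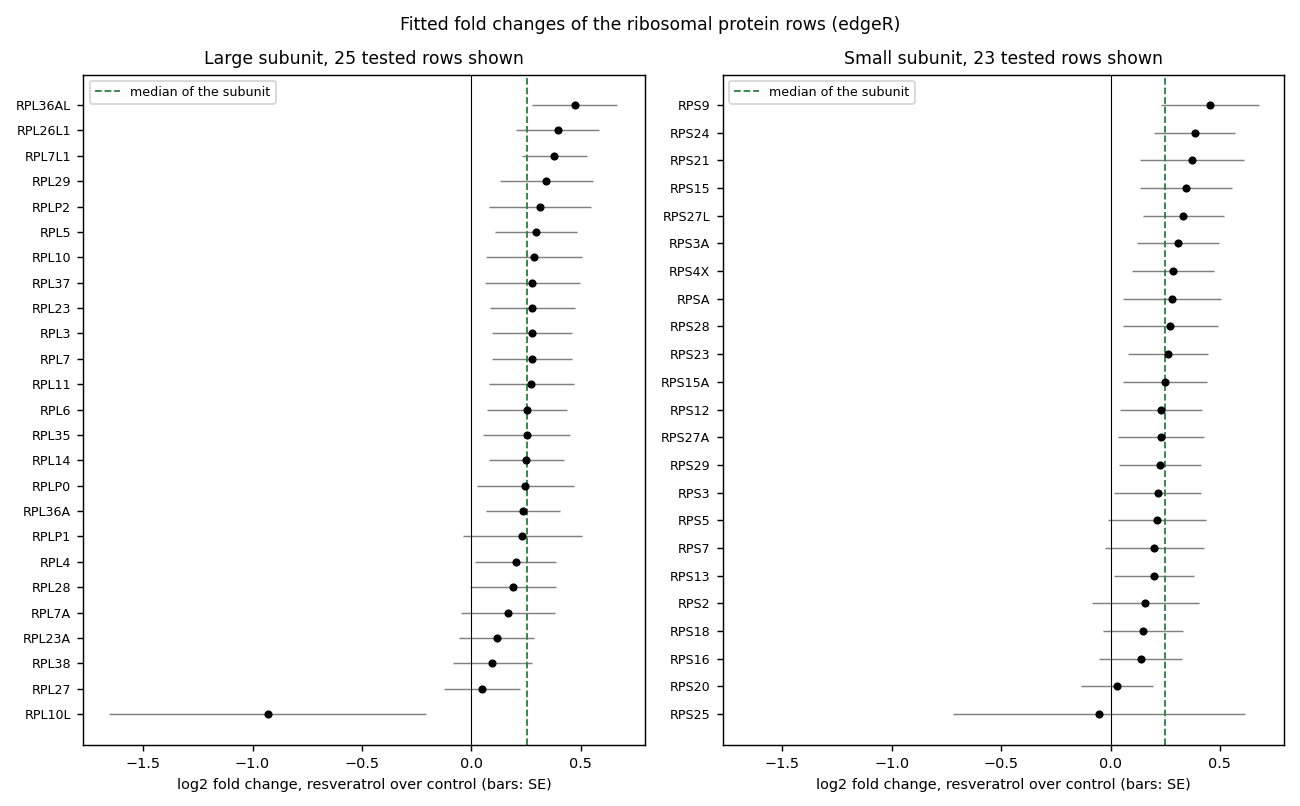
Log2 fold change of resveratrol over control from edgeR for the 25 tested large subunit rows and 23 of the 25 small subunit rows, with bars of 1 SE and the dashed line at the median over all 25 rows of the subunit. Every point but that of RPL10L (left panel) and RPS25 (right panel) lies right of 0, no gene passed the test, and RPL10L and RPS25 have the widest bars.

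In TMM-scaled CPM, every resveratrol library lay above every control library in 11 large subunit rows and 8 small subunit rows, and below in 0 of either. Over all tested rows 5.67% lay above in this way, as did 10.5% of the 1002 other rows that averaged over 100 TPM. In TPM there were 12 and 10 such rows, against 4.11% of all rows. Without control 3, with 2 control libraries left to overlap, the numbers were 19 and 19, and 14.5% of all rows lay above. They were 19 and 21 when libraries were scaled by their totals alone, where 10.5% of all rows lay above.

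The stalk of the large subunit, built from RPLP0, RPLP1 and RPLP2, recruits elongation factors to the ribosome. RPLP1 (ENSSSCG00000004970.3) measured 6555, 7446 and 7713 TPM in resveratrol 1, 2 and 3, against 6418, 4839.6 and 7869 TPM in control 1, 2 and 3. The groups overlapped, since control 3 was the highest library and control 2 the lowest. RPLP2 (ENSSSCG00000012842.3) measured 3955, 4127 and 4359 TPM in resveratrol 1, 2 and 3, against 3565, 2918 and 3930.1 TPM in control 1, 2 and 3. Here all 3 resveratrol libraries lay above the controls in TPM, but not in scaled CPM. RPLP0 (ENSSSCG00000036014.1), the scaffold that holds the other 2 proteins, averaged 1157 ± 125 TPM in resveratrol and 1019.8 ± 106 TPM in control (SD, n = 3 each). The log2 fold changes of RPLP0, RPLP1 and RPLP2 were 0.25 (SE 0.22), 0.23 (SE 0.27) and 0.31 (SE 0.23). That of RPLP1 was -0.011 without control 2.

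RPL5 and RPL11 form with the 5S RNA a particle that can also bind MDM2, the regulator of p53 in human and mouse cells. RPL5 (ENSSSCG00000006899.3) measured 808, 757 and 855 TPM in resveratrol 1, 2 and 3, against 675, 741 and 678 TPM in control 1, 2 and 3. RPL11 (ENSSSCG00000024260.2) measured 1529, 1478 and 1666 TPM in resveratrol 1, 2 and 3, against 1287, 1379.9 and 1395 TPM in control 1, 2 and 3. Both genes were higher in each resveratrol library than in each control library, by log2 fold changes of 0.30 (SE 0.19) and 0.27 (SE 0.19), and neither passed in edgeR (adjusted p = 0.742 and 0.751).

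RPL3 and RPL10 lie near the site where peptide bonds form. RPL3 (ENSSSCG00000040494.1) averaged 410.5 ± 14.1 TPM in resveratrol and 358 ± 4.76 TPM in control. RPL10 (ENSSSCG00000035997.1), one of the last proteins to join the large subunit, averaged 1888 ± 36.1 TPM in resveratrol and 1607 ± 179.6 TPM in control. Neither gene's groups overlapped, and their log2 fold changes were 0.28 (SE 0.18) and 0.29 (SE 0.22). Around the tunnel through which the new chain leaves, the 4 members with a row, RPL4, RPL23A, RPL35 and RPL38, had log2 fold changes of 0.09 to 0.25. RPL38, next after RPLP1 in the large subunit by TPM, averaged 4227 ± 109.8 TPM in resveratrol and 4175 ± 378 TPM in control, and its log2 fold change was -0.0056 without control 2. RPL29, a protein that mice can live without, averaged 1633 ± 94.7 TPM in resveratrol and 1342 ± 159.9 TPM in control, with a log2 fold change of 0.34 (SE 0.21). RPL27 lay at the other end among the core proteins, with 364 ± 24.5 TPM in resveratrol, 371 ± 51.2 TPM in control and a log2 fold change of 0.05 (SE 0.17), which was negative without control 1 or control 2 and in limma on log2 TPM. RPL7, RPL6 and RPL14 had log2 fold changes of 0.28, 0.25 and 0.25, and in scaled CPM none of the 3 overlapped between the diets. RPL7 measured 1103, 995 and 1073 TPM in resveratrol 1, 2 and 3, against 873, 1103 and 812 TPM in control 1, 2 and 3, so that in TPM control 2 reached the highest resveratrol library. RPL23 and RPL37 also had log2 fold changes of 0.28 (SE 0.19 and 0.22), with overlap in scaled CPM, and RPL28 and RPL7A ones of 0.19 and 0.17.

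Both rows with an unadjusted p under 0.05 were paralogs, that is, related copies of a core protein. RPL7L1 (ENSSSCG00000026472.2), a relative of RPL7, measured 45.1, 45.4 and 48.3 TPM in resveratrol 1, 2 and 3, against 36.4, 43.0 and 33.9 TPM in control 1, 2 and 3. Its log2 fold change was 0.38 (SE 0.15), with an unadjusted p of 0.0284 and an adjusted p of 0.733 in edgeR. It stood at 4.38 ± 0.255% of the TPM of RPL7 in resveratrol and at 4.08 ± 0.158% in control. RPL36AL (ENSSSCG00000005006.2) measured 686, 575 and 761 TPM in resveratrol 1, 2 and 3, against 538, 507 and 498 TPM in control 1, 2 and 3. It was more abundant than its parent RPL36A, at 182 ± 14.6% of the TPM of RPL36A in resveratrol and 157 ± 20.2% in control, and these ratios overlapped between the groups. The log2 fold change was 0.47 (SE 0.19) for RPL36AL and 0.24 (SE 0.17) for RPL36A. RPL26L1 averaged 32.5 ± 0.738 TPM in resveratrol and 26.0 ± 2.91 TPM in control (log2 fold change 0.39, SE 0.19). These 3 rows were higher in each resveratrol library than in each control library. RPS27L, a relative of RPS27 induced by p53 in human cells, averaged 664 ± 98.9 TPM in resveratrol and 558 ± 35.4 TPM in control (log2 fold change 0.33, SE 0.18), with resveratrol 2 below control 2. No unadjusted p of a core large subunit protein was under 0.05 in edgeR. How the authors' counting split reads between such copies is not given in the sources used here, so their levels are uncertain.

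A further pair of paralogs belongs to other tissues in mammals. RPL3L, the form of striated muscle, had 29, 19 and 21 reads in resveratrol 1, 2 and 3, against 11, 7 and 12 reads in control 1, 2 and 3. It lay below the minimum level and was the only member that was not tested. RPL10L (ENSSSCG00000005001.2), a copy of RPL10 that serves in the testis of mice, had 24, 17 and 15 reads in resveratrol 1, 2 and 3, against 10, 42 and 12 reads in control 1, 2 and 3. Control 2 stood out, at 3.82 TPM, with the other libraries at 0.439 to 0.877 TPM. Its log2 fold change was -0.93 (SE 0.72) with all libraries and 0.48 without control 2.

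In the small subunit, the rows of the platform and body had log2 fold changes of 0.16 to 0.45, with a median of 0.29 and all 11 members with a row positive. RPS9 (ENSSSCG00000029785.2), a protein beside the entry of the messenger RNA channel, measured 1224, 1162 and 1111 TPM in resveratrol 1, 2 and 3, against 1037, 743 and 859.9 TPM in control 1, 2 and 3. RPS24 (ENSSSCG00000039544.1) measured 1735, 1627 and 1886 TPM in resveratrol 1, 2 and 3, against 1387, 1496 and 1386 TPM in control 1, 2 and 3. In both genes each resveratrol library lay above each control library, and RPS9 was lowest in control 2. Their log2 fold changes were 0.45 (SE 0.22) and 0.38 (SE 0.18), with an edgeR adjusted p of 0.733 for each. RPS2, which lines the same channel, had one of 0.16 (SE 0.24), or -0.04 without control 2, and control 3 was its highest library. Of the rest, RPS3A, RPS4X, RPS23, RPS15A, RPS13, RPS7 and RPS21 had log2 fold changes of 0.20 to 0.37. RPS4X, the X-linked form of its protein in mammals, measured 919, 852 and 912 TPM in resveratrol 1, 2 and 3, against 716, 797 and 809 TPM in control 1, 2 and 3, without overlap. RPS21 had the largest of these, 0.37 (SE 0.24), with 2697 ± 366 TPM in resveratrol and 2176 ± 351 TPM in control, and resveratrol 1 lay below control 3.

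The 13 rows of the head had a median log2 fold change of 0.23, from -0.05 to 0.35, and 12 were positive. RPS15 averaged 3601 ± 79.3 TPM in resveratrol and 2956 ± 199 TPM in control, with no overlap and a log2 fold change of 0.35 (SE 0.21). RPS28, at the exit of the messenger RNA channel, averaged 4138 ± 495 TPM in resveratrol and 3561 ± 500.0 TPM in control, and resveratrol 3 lay below control 1. RPSA, known also as a laminin receptor, averaged 524 ± 93.0 TPM in resveratrol and 455 ± 33.0 TPM in control. RPS27A, made as a fusion with ubiquitin, averaged 1437 ± 110.1 TPM in resveratrol and 1285 ± 43.7 TPM in control. The groups overlapped for both, with resveratrol 1 the lowest library for RPSA in TPM and below control 3 for RPS27A. RPS20 was the steadiest member, with CPM of 361, 333 and 335 in resveratrol 1, 2 and 3, against 356, 317 and 334 in control 1, 2 and 3. Its log2 fold change was 0.03 (SE 0.17), or -0.05 in limma on log2(TPM + 0.5), and it was named after its values were seen, as were the other members outside the naming rule. Of 18 genes mutated in human Diamond-Blackfan anaemia, a failure of red cell formation caused by faults in single ribosomal proteins, 9 had a row. In edgeR all 9 had positive log2 fold changes, from 0.05 to 0.38 with a median of 0.27. Of all 50 tested members 48 were positive, with a median of 0.25, so these 9 were not set apart from the rest. In limma on log2(TPM + 0.5) 8 of the 9 were positive, RPL27 being at -0.02.

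RPS25 (ENSSSCG00000036296.1), a head protein needed by some viral messengers to start translation, had the largest SD within groups of the 50 tested members, 1.08 on the log2 scale. It measured 848, 311 and 1908 TPM in resveratrol 1, 2 and 3, against 1319.9, 1604 and 602 TPM in control 1, 2 and 3. The lowest and the highest library of all 6 were both resveratrol libraries. Its reads numbered 8448, 3060 and 18779 in resveratrol 1, 2 and 3, against 10996, 6253 and 5107 in control 1, 2 and 3. The highest library held 6.77 times the scaled CPM of the lowest, with 6.98 times for RPL10L and 1.14 to 2.25 times over the 48 tested members other than RPS25 and RPL10L. Its log2 fold change was -0.05 (SE 0.67, adjusted p = 0.991 in edgeR), and leaving out 1 library gave values between -0.94 without resveratrol 3 and 0.39 without resveratrol 2. In limma on log2(TPM + 0.5), which averages log values, it was -0.45. The row lists 4 transcripts, and the cause of the spread was not tested.

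**Figure D4:**
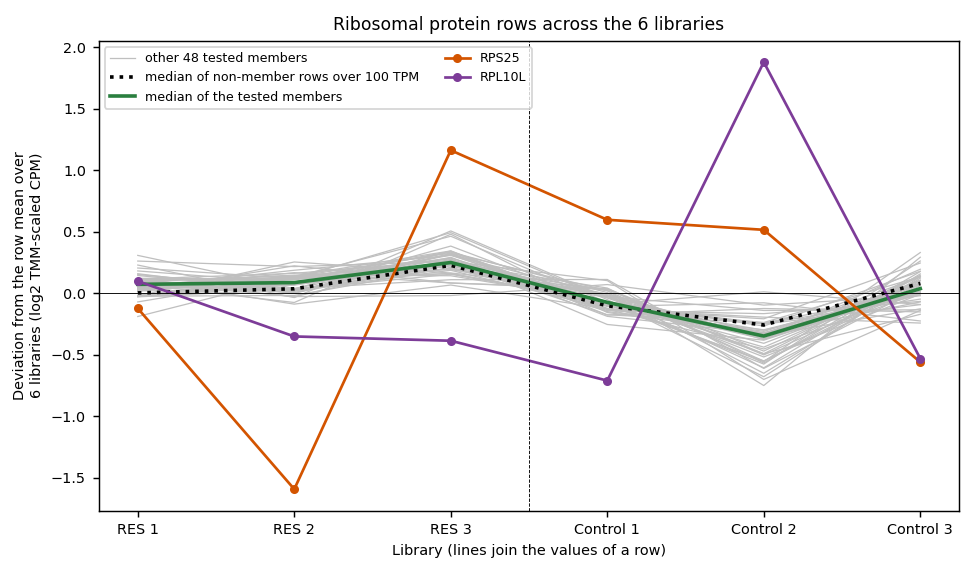
Deviation of each tested member from its own mean over the 6 libraries, in log2 TMM-scaled CPM, by library. Grey lines are 48 members, the green line is the median of the members and the dotted line the median of the 1002 other rows over 100 TPM. Members run together, low in control 2 and high in resveratrol 3, while RPS25 and RPL10L leave the band.

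The other members varied together between libraries. The median member lay 0.07, 0.09 and 0.25 above its own mean in resveratrol 1, 2 and 3 on the log2 scale, and at -0.07, -0.35 and 0.04 in control 1, 2 and 3. Control 2 was the lowest library for 44 of the 50 tested members, and resveratrol 3 was the highest for 38. The spread within groups had a median SD of 0.19 (log2) per member, against 0.27 over all tested rows. Without control 2, the median log2 fold change was 0.18 in the large subunit, with 22 of 25 rows positive, and 0.13 in the small subunit, with 23 of 25 positive. Without control 3 it was 0.34 and 0.35. In TPM, where control 1 was the lowest library for 23 members and control 2 for 18, the median was 0.19 and 0.18.

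The same library pattern was present in other abundant rows. The 1002 rows outside the ribosomal proteins that averaged over 100 TPM had a median log2 fold change of 0.15, with 73.1% of them positive. Their median deviations were 0.0028, 0.036 and 0.23 in resveratrol 1, 2 and 3, and -0.10, -0.26 and 0.08 in control 1, 2 and 3. Below that level the median of the other rows was -0.02. Among all other rows, split into 5 equal bins by assigned length, the longest bin had a median of -0.13 and the shortest one of 0.04, and 33 of the 50 members fell in the shortest. These bins were chosen after seeing the data, and the part of level, length or depth in the shift of the members was not tested. Macrophage markers were also higher in resveratrol. All 11 had a positive fold change, 6 of them at an unadjusted p under 0.05 in edgeR, against 2.21% of all rows higher. They summed to 1107, 765 and 735 TPM in resveratrol 1, 2 and 3, against 588 to 693 TPM in control. Tendon and cartilage markers were lower, with 0 of 7 fold changes positive. In edgeR 5 had an unadjusted p under 0.05, against 4.32% of all rows lower. Their sums were 18.2 to 33.0 TPM in resveratrol, against 343, 34.2 and 72.3 TPM in control 1, 2 and 3. No marker of either list was at 0 in every library, and the part of these cells in the result was not tested.

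Summed over the rows, large subunit genes took 1.73%, 1.64% and 1.81% of reads in resveratrol 1, 2 and 3, against 1.41%, 1.29% and 1.43% in control 1, 2 and 3. Small subunit genes took 1.68%, 1.54% and 1.78% in resveratrol 1, 2 and 3, against 1.34%, 1.25% and 1.39% in control 1, 2 and 3. The groups did not overlap on this scale. In TPM the small subunit summed to 55914 to 58179 in resveratrol and 48092 to 51941 in control, without overlap. The large subunit summed to 36261 to 38850 TPM in resveratrol and 30894 to 36775 TPM in control, and here control 3 lay above resveratrol 1. The unequal share of an assembled locus, MSTRG.14710, which took 8.38% to 11.7% of reads in resveratrol and 6.92% to 17.6% in control, enters the shares of reads. The ratio of large to small subunit reads was 1.04 ± 0.0239 in resveratrol and 1.04 ± 0.0124 in control (SD, n = 3 each).

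**Figure D5:**
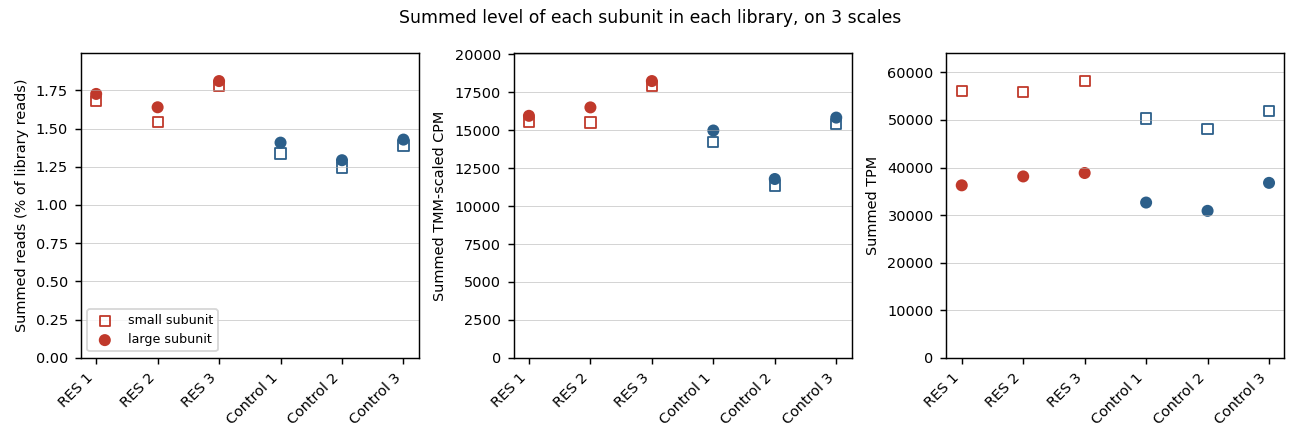
Summed level of the large subunit (filled circles) and small subunit (open squares) rows in each library, as the percent of library reads, as TMM-scaled CPM and as TPM, each axis starting at 0. Resveratrol libraries (red, left) lie above control libraries (blue, right) on every scale except for the large subunit in TPM, where control 3, at 36775, exceeds resveratrol 1, at 36261.

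Mitochondrial ribosomal proteins, which build the separate ribosome of that organelle, showed a shift of like size. Of 64 tested rows 59 had a positive log2 fold change and the median was 0.23, with 0 called in edgeR. At an unadjusted p under 0.05 there were 4 rows, all higher, where 6.53% of all rows had such a p and 2.21% were higher. Summed over the list, the groups did not overlap as percent of reads. They overlapped in TPM and in TMM-scaled CPM, at 2028 to 2295 CPM in resveratrol and 1469 to 2156 CPM in control. The median was 0.16 without control 2 and 0.36 without control 3. MRPS33 averaged 70.5 ± 4.31 TPM in resveratrol and 58.0 ± 9.95 TPM in control, and its log2 fold change was 0.46 (SE 0.16). On the same scale MRPL2 stood at 0.50 (SE 0.20) and MRPS18A at 0.46 (SE 0.18). The shift is therefore not shown to be particular to cytosolic ribosomal proteins, and the difference between the 2 lists was not tested.

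Other genes whose messenger RNAs carry the pyrimidine tract, mostly elongation and initiation factors, had a median log2 fold change of 0.22, with 15 of 18 tested rows positive, 0 called and 0 at an unadjusted p under 0.05 in edgeR. RACK1, a scaffold on the head of the small subunit, averaged 926 ± 50.2 TPM in resveratrol and 746 ± 35.2 TPM in control, with a log2 fold change of 0.39 (SE 0.20) and no overlap. EIF3G and EIF3E, subunits of the initiation factor that binds the small subunit, stood at 0.36 (SE 0.18) and 0.39 (SE 0.21) on the same scale. FAU, the ribosomal protein gene outside the rule, averaged 9.38 ± 2.73 TPM in resveratrol and 11.0 ± 1.51 TPM in control (log2 fold change -0.14, SE 0.19).

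The genes that build and control ribosomes had medians nearer to that of all rows, and the difference from the members was not tested. Assembly and ribosomal RNA processing factors had a median log2 fold change of 0.0094, with 21 of 40 tested rows positive. NPM1, a nucleolar chaperone, averaged 244 ± 68.6 TPM in resveratrol and 181 ± 58.2 TPM in control (log2 fold change 0.53, SE 0.23). Its groups overlapped, with 323, 207 and 201 TPM in resveratrol 1, 2 and 3, against 169, 245 and 130 TPM in control 1, 2 and 3. RIOK1, a kinase of late small subunit maturation, averaged 3.67 ± 0.549 TPM in resveratrol and 5.16 ± 0.842 TPM in control (log2 fold change -0.40, SE 0.18). In edgeR NPM1 and RIOK1 were the only 2 of the 40 rows with an unadjusted p under 0.05. Over all tested rows 6.53% had such a p. LTV1, which acts in the same maturation as RIOK1, had a log2 fold change of -0.54 (SE 0.32). Its groups overlapped, with 120, 160 and 95.4 TPM in resveratrol 1, 2 and 3, against 141, 353 and 116 TPM in control 1, 2 and 3. RNA polymerase I and its factors had a median of 0.02 with 8 of 16 positive. In that list MYC, the transcription factor that drives ribosome production, averaged 6.36 ± 1.01 TPM in resveratrol and 11.6 ± 4.81 TPM in control. Control 1, 2 and 3 measured 8.33, 17.1 and 9.31 TPM, so that control 2 raised the control mean most. MYC was lower in each resveratrol library than in each control library, as were 1039 of all 14908 tested rows in scaled CPM. Its log2 fold change was -0.74 (SE 0.22, unadjusted p = 0.00719, adjusted p = 0.733 in edgeR). The log2 fold change stood at 0.28 (SE 0.16) for TAF1B and at 0.25 (SE 0.15) for POLR1D. The mTORC1 list had a median of 0.01, with 12 of 23 positive. RRAGC and RRAGD, which bring mTORC1 to the lysosome, stood at log2 values of 0.35 (SE 0.17) and 0.52 (SE 0.27), and RPTOR, its scaffold, at -0.30 (SE 0.16). The remaining initiation and termination factors had a median of 0.05 with 19 of 25 positive, and among them EIF2B2, EIF5B and EIF6 had fold changes on the log2 scale of 0.30 (SE 0.15), -0.31 (SE 0.18) and 0.34 (SE 0.19). No gene of these lists passed in edgeR. In TPM the medians of these 4 lists were -0.0771, -0.0372, -0.0730 and -0.0525, against -0.079 over all tested rows. In the same order, 10 of 40, 6 of 16, 8 of 23 and 9 of 25 rows were positive on that scale.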

How the data were processed

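For each library the authors deposited read counts and TPM by gene, per the file headers. Per the submitters' processing notes the aligner was Bowtie (0.12.2) and the builds were mm8 and mm9, which are of mouse. The rows carry pig Ensembl identifiers, and the pig build, annotation, counting program and use of strand were not given in the sources used here. Groups and replicate numbers came from the sample titles. Symbols came from a table of identifiers and matched 14750 of 22844 rows. No sequences were used here. Values of some single genes are not reported here, and those genes stay in the counts and medians.

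A row was tested where its TPM averaged 0.5 or more across libraries, which left 14908 rows. Library sizes were adjusted with TMM factors (trimmed mean of M values), and counts were fitted with edgeR 4.0.16 (robust quasi-likelihood test, resveratrol against control, Benjamini-Hochberg adjustment over all tested rows, threshold 0.05), with a biological coefficient of variation of 0.235. The SE is the log2 fold change divided by the square root of F. Log2 CPM had a prior count of 2. The fit was tested on simulated data. The deposited table of all libraries together was not used. Lists are described by counts and medians, with no set test. Named members are, per subunit, the 5 with the smallest p in each direction, the 3 highest by TPM, the stalk, the 5S particle, paralogs with their parents and reference genes, and up to 3 genes of each other list. Members and lists were chosen with earlier results of these data known. Alternatives used limma 3.58.1 on log2 TPM with pseudocounts of 0.1, 0.5 and 1, DESeq2 1.42.0, other scaling and filters, a replicate block and each library left out, in R 4.3.3.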

Additional observations from a re-analysis of the deposited data

How the results depend on the processing

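Over 18 alternatives, 0 members were called in either subunit, and the medians of both subunits stayed positive. Leaving out 1 library gave medians of 0.18 to 0.34 (large) and 0.13 to 0.35 (small), 11 to 19 and 8 to 19 rows higher without overlap (where 8.62% to 14.5% of all rows were), 0 to 2 and 0 to 1 rows at an unadjusted p under 0.05, and 0 to 5 called rows in the whole table, with 5 only without control 2. DESeq2 called 40 rows, none of them a member. At an unadjusted p under 0.05, library totals alone took 4 large and 4 small subunit rows as higher. Limma on log2 TPM took 1 and 1 with each pseudocount (1.32% of all rows with 0.5). DESeq2 took 3 small subunit rows (2.36% of all rows), and without paralogs 0 large subunit rows remained in edgeR. For library totals alone and with 1 library left out, the share of all rows at such a p is not given here. Those counts are therefore not read as a result about the members. With library totals alone 19 and 21 rows were higher without overlap, against 10.5% of all rows. The median over all rows was then 0.057.

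With limma on log2 TPM and pseudocounts of 0.1, 0.5 and 1, the list medians were -0.0525 in each for other initiation factors, -0.0790, -0.0771 and -0.0718 for assembly factors, -0.0372 in each for polymerase I, and -0.0741, -0.0730 and -0.0717 for mTORC1. Polymerase I was at 0.0855 with library totals alone. Leaving out 1 library gave -0.0157 to 0.156, -0.0299 to 0.0765, -0.0029 to 0.106 and -0.0503 to 0.0572 in the same order. Against totals without the dominant and mitochondrial rows, the large subunit took 1.995% in resveratrol and 1.66% in control, and the small subunit 1.93% and 1.59%. Without control 2 the fold changes of 7 members reversed, those of RPL10L (0.48), RPL27 (-0.04), RPL38 (-0.0056), RPLP1 (-0.011), RPS2 (-0.04), RPS20 (-0.0078) and RPS25 (0.089). That of RPS25 also reversed without control 1 (0.14), resveratrol 1 (0.10) and resveratrol 2 (0.39), that of RPL27 without control 1 (-0.0053), and that of RPS20 without resveratrol 1 (-0.0023). In limma on log2 TPM RPL27 (-0.02) and RPS20 (-0.05) reversed with each pseudocount. Over the libraries left out, the ranges were -1.37 to 0.48 for RPL10L, -0.0056 to 0.22 for RPL38, -0.011 to 0.465 for RPLP1 and -0.94 to 0.39 for RPS25. The cause was not tested. The planned search for short words near start sites was not run, for want of sequences used here.

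The replicate block changed no call, with medians of 0.27 and 0.26, 2 large and 3 small subunit rows at an unadjusted p under 0.05. The share of all rows at such a p in that fit is not given here, so these counts are not read as a result about the members. Same-numbered libraries correlated at 0.16, 0.07 and 0.20 in their deviations from the group means, each best with its own number. Deviations from a group mean cancel within the group, so some positive correlations were bound to occur. These values therefore do not show a pairing, which was not tested.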

Other observations

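Genes often used as references in quantitative PCR were looked at as a list, since ribosomal proteins serve there too. Of 14 tested rows 10 had a positive log2 fold change, the median was 0.12, and 0 were called in edgeR, with 0 at an unadjusted p under 0.05. Among the ribosomal members of the list, RPL4 measured 628, 622 and 646 TPM in resveratrol 1, 2 and 3, against 575, 647 and 536 TPM in control 1, 2 and 3. RPS18 averaged 1268 ± 23.7 TPM in resveratrol and 1207 ± 125 TPM in control. The log2 fold changes of RPLP0, RPL4 and RPS18 were 0.25 (SE 0.22), 0.20 (SE 0.19) and 0.15 (SE 0.18). GAPDH, the glycolytic enzyme, stood at 0.17 (SE 0.23), while that of ACTB, cytoplasmic actin, was -0.17 (SE 0.21), with 564 ± 83.6 TPM in resveratrol and 669 ± 66.9 TPM in control. The median of the list was 0.01 without resveratrol 3, 0.06 without control 1 or control 2, 0.18 without control 3 and 0.03 in limma on log2(TPM + 0.5).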
